A study of Ovis aries with 9 samples.

Results

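Of 3404 hepatocytes picked by hand from sheep liver, 351 (10.3%) held at least 1 sequencing read of PTPRC, the gene for the leukocyte surface protein CD45. These 351 cells are described here. They were chosen by their PTPRC reads alone and were set against the 3053 cells of the same stages that held no such read. The animals were female sheep (Ovis aries) at 9 reproductive stages with 1 sample each, namely virgin, gestation days 40 to 50, 50 to 70, 70 to 80, 90 to 100, 100 to 120 and 140 to 150, and lactating ewes on days 7 and 15 after birth. Livers collected at slaughter were digested with collagenase, the heavier cells were taken from a slow spin, and each cell drawn up under the microscope became its own Smart-seq3xpress library, a plate method that reads mRNA from single cells. No genotype, drug or diet is given, and the labels name no separate animals within a stage, so every p-value measures only the spread between these 9 samples.

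CD45 is a receptor tyrosine phosphatase on the surface of nearly all nucleated blood cells, and hepatocytes are not known to make it. It removes an inhibitory phosphate from Src-family kinases such as LCK, which lets antigen receptors signal. A liver holds resident macrophages (Kupffer cells), natural killer (NK) cells and T cells in its sinusoids, pressed close to the hepatocytes, so RNA of such cells can reach a well with a picked hepatocyte, as a whole second cell, a fragment or free RNA.

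The PTPRC reads that chose the cells are given as a description. A carrying cell held a median of 3 PTPRC reads and at most 196. There were 52 cells with 1 read, just inside the rule, 189 with 2 to 9, 92 with 10 to 49 and 18 with 50 or more, while the 3053 comparison cells had 0. The 4190 PTPRC reads were spread over many cells at most stages, but on day 15 of lactation 1 cell held 44.6% of that stage's PTPRC reads. In the gene table's annotation a small nuclear RNA gene, LOC114117417, lies within PTPRC, and no source used here states that strand was counted, so reads of the pair cannot be told apart.

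Carriers were found at every stage. They were 49 of 531 virgin cells (9.23%, exact 95% Clopper-Pearson interval 6.9 to 12), 21 of 291 at gestation days 40 to 50 (7.22%), 31 of 289 at days 50 to 70 (10.7%), 36 of 253 at days 70 to 80 (14.2%), 64 of 396 at days 90 to 100 (16.2%), 40 of 353 at days 100 to 120 (11.3%) and 43 of 492 at days 140 to 150 (8.74%). In lactation they were 42 of 246 cells on day 7 (17.1%, interval 12.6 to 22.4) and 25 of 553 on day 15 (4.52%, interval 2.95 to 6.6). The intervals cover counting error only. The lactating samples thus held both the highest and the lowest share, and their intervals did not overlap.

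Depth moves such a share, since deeper libraries show more genes. Cells held 36518 to 3842012 reads. With each cell thinned at random to 155164 reads, which left 3063 cells (341 shallower cells were left out, 29 of them carriers), the share of cells with a PTPRC read was 8.11% ± 1.6 (SD, n = 6) in gestation and 8.87% ± 8.83 (SD, n = 2) in lactation, and 6.24% in the virgin sample. The difference of -0.755 percentage points had a two-sided exact permutation p of 0.75, where 28 arrangements allow nothing below 0.0357. It was 0.604 without thinning and 5.49 without lactation day 7, so its sign was not stable.

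**Figure D1:**
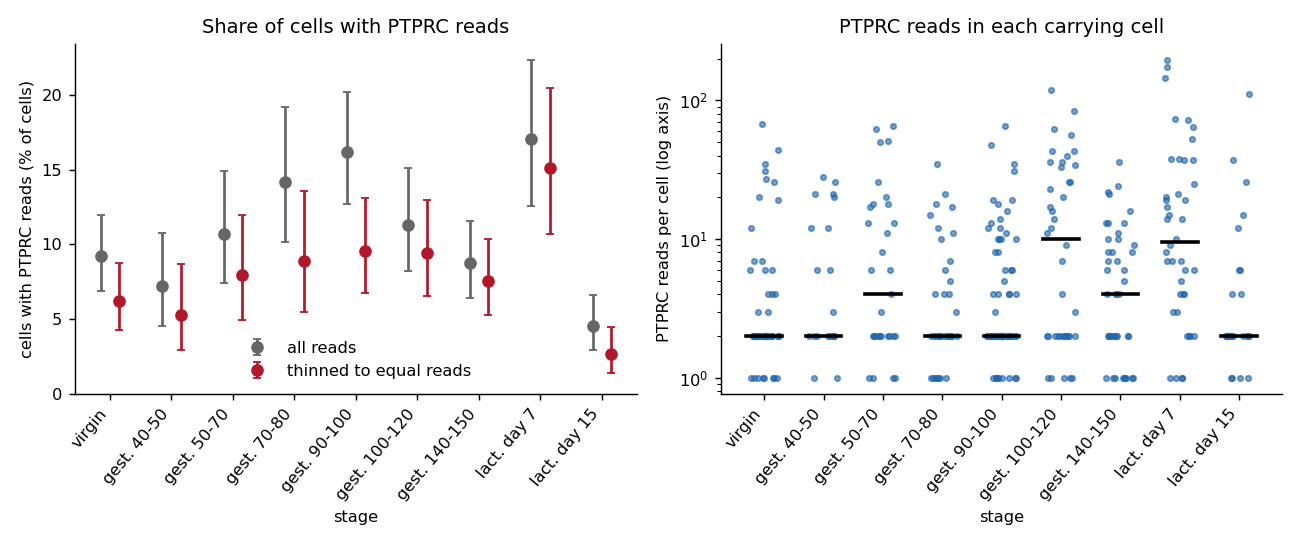
Left, the share of cells (%) with PTPRC reads at each stage, with all reads (grey) and after thinning to equal reads (red), with exact 95% intervals. Right, PTPRC reads in each carrying cell on a log axis, with the stage median as a line. The thinned shares run from 2.63% on lactation day 15 to 15.1% on lactation day 7.

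Reads were summed per stage over carriers and over the other cells, and the 2 sums of each stage were compared across the 9 stages with edgeR's quasi-likelihood test with stage as a block. Of 15042 genes tested, 333 (2.21%) were higher in carriers at a Benjamini-Hochberg adjusted p under 0.05 and 34 (0.226%) were lower. PTPRC itself was left out of the fit. On the same sums DESeq2 called 3.48% higher and 0.858% lower. With every cell weighted equally in its stage, limma called 6.83% higher and 0.199% lower. Its higher calls held 332 of the 333, but its 30 lower calls held only 5 of the 34, of which 33 kept their sign. The higher genes had a median log2 fold change of 3.40 and the lower ones of -0.40, against -0.09 over all genes tested. Of the 333, 230 were higher in every one of the 9 stages. The 34 lower calls depended on the samples: there were 93 without gestation days 90 to 100, and 15 without days 50 to 70, 22 without days 70 to 80, 19 without days 100 to 120, 22 without days 140 to 150, 12 without lactation day 7 and 13 without lactation day 15.

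Genes shared by most leukocytes rose together. Of 28 measured pan-leukocyte genes other than PTPRC, 23 rose and none fell, with a median log2 fold change of 3.84. Expression of CD53, a tetraspanin of leukocytes, was 3.19 to 26.2 CPM, the reads of a gene scaled to a common library total, in carriers over the 9 stages (median 5.4) and 0.105 to 1.2 CPM in the other cells (median 0.27). The groups did not overlap, and the log2 fold change was 4.34 (SE 0.31, adjusted p = 6.04e-07). CORO1A, an actin regulator of blood cells, ran from 3.83 to 53.1 CPM in carriers and from 0.119 to 1.95 in the rest, a log2 fold change of 3.94 (SE 0.33). LCP1, the leukocyte plastin, ran from 4.98 to 39.2 CPM against 0.727 to 3.11, a log2 fold change of 2.70 (SE 0.30). LAPTM5 (3.85), GMFG (3.83), ARHGDIB (3.90) and CD52 (5.13) also rose in every stage. The 5 uncalled members were SPN (0.25), EVL (0.29), PTPN6 (0.43), CCR7 (2.01) and MYO1F (3.81, adjusted p = 0.055). Most cells with reads of SPN, EVL or PTPN6 held no PTPRC read. SPN had reads in 1748 cells (208 carriers), EVL in 1542 (177) and PTPN6 in 1295 (175). Their small changes thus do not show that leukocyte RNA was missing.

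T cell genes were among the largest differences. Of 10 T cell genes that passed the count filter 9 rose and none fell, with a median of 4.74. Because a gene may pass the filter through the carriers alone, the fit was repeated without it, where 14 of 19 rose and the median was 4.69. CD3E, a chain of the T cell receptor complex, was at 1.09 CPM in virgin carriers, 8.44 at gestation days 40 to 50, 17.1 at days 50 to 70, 12.9 at days 70 to 80, 8.05 at days 90 to 100, 39.4 at days 100 to 120, 6.86 at days 140 to 150, 54.6 on lactation day 7 and 8.08 on day 15. In the other cells it stayed between 0.0445 and 0.714 CPM. The virgin carriers were lowest and lactation day 7 highest, and no carrier sum fell into the range of the other cells. The log2 fold change was 5.22 (SE 0.47, adjusted p = 5.01e-06). The interleukin-7 receptor gene IL7R (5.47), the co-receptor chain CD8B (5.28), CD3D (5.52), CD2 (4.23) and LCK (4.63), the kinase that CD45 activates, rose as well. TCF7 (0.66, adjusted p = 0.0853) did not pass. It had reads in 997 cells, of which 122 were carriers, while CD3E had reads in 206 cells, of which 110 were carriers.

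Genes of NK cells and cytotoxic lymphocytes rose by the largest median of any list, 5.09, with 10 of 11 higher (12 of 17 without the filter, median 4.87). NKG7, a cytotoxic granule protein, ran from 1.96 to 50.9 CPM in carriers with a median of 10.2, and from 0.0842 to 1.1 in the other cells. The 2 ranges did not overlap, and the log2 fold change was 4.91 (SE 0.44, adjusted p = 4.9e-06). CCL5, a chemokine of activated T and NK cells, had the largest change among called genes with a symbol other than LOC and at least 5 CPM in carriers, 5.75 (SE 0.51), at 2.71 to 79.9 CPM against 0.0491 to 1.41. The chemokine XCL1 (5.65), the interleukin-2 receptor chain IL2RB (5.57), the pore-forming PRF1 (5.36), the activating receptor KLRK1 (5.09) and the protease CTSW (4.60) rose too.

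Some of these reads came from few cells. GNLY, the granule protein granulysin, was at 0.211 CPM in virgin carriers and 0.412 at gestation days 40 to 50, but at 258 at days 100 to 120, 239 on lactation day 7 and 236 on day 15. The other cells were at 0.0818 to 23.4 CPM, so the groups overlapped, although carriers were higher in each of the 9 stages (log2 fold change 5.46, SE 0.72). A single cell held 21.1% of all GNLY reads, and 36.9% of XCL1 reads also lay in 1 cell. For CD3E the top cell held 8.22% and for CD53 6.49%.

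Macrophage genes rose less steeply. Of 20 Kupffer cell and macrophage genes that passed the filter 11 rose and none fell, with a median of 2.16 (11 of 22 without the filter, median 2.02). C1QB, a chain of complement C1q that liver macrophages make, was at 12.1 CPM in virgin carriers, between 14.8 and 34.9 in the 6 gestation samples, 43 on lactation day 7 and 2.68 on lactation day 15. Other cells held 1.49 to 6.41 CPM. Carriers were higher at every stage, but the ranges overlapped through the low value of lactation day 15. The log2 fold change was 2.39 (SE 0.25, adjusted p = 1.88e-05). Its partner chains C1QA (2.37) and C1QC (2.42), the Fc receptor chain FCER1G (2.46) and the protease CTSS (2.51) changed by like amounts. CD68, a lysosomal macrophage marker, had 0 reads in every cell. So did HSPA8 and APOA2, the latter from the hepatocyte secreted protein list. A 0 over the whole series is therefore not read here as absence of macrophage RNA. The Kupffer cell markers TIMD4 (1.36, adjusted p = 0.155) and VSIG4 (1.01, adjusted p = 0.679) and the monocyte co-receptor CD14 (0.10, adjusted p = 0.812) did not pass. CD14 had reads in 1819 cells, of which 198 were carriers, and carriers held 14.2% of its reads. With reads in so many cells without PTPRC, its small change is not read here as absence of monocyte RNA.

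CD74, the chain that guides MHC class II molecules, had the smallest p of all genes. In carriers it was at 59.8 CPM in the virgin sample, 15.8, 111, 149.6, 192, 126 and 82.5 through gestation, 214 on lactation day 7 and 25.3 on lactation day 15. In the other cells it was at 3.83 to 23 CPM. Carriers were higher in each of the 9 stages, and the carriers of days 40 to 50 lay within the range of the other cells. The log2 fold change was 3.20 (SE 0.17, adjusted p = 3.46e-08). Of 6 fitted genes of dendritic cells and MHC class II, CD74, LAMP3 (3.60) and IRF8 (3.11) rose. The class II chain OVAR-DRB1 rose by 2.88 (SE 0.18).

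Other blood lineages gave fewer calls. Of 7 fitted monocyte and neutrophil genes 5 rose, among them PLAC8 (2.32) and FGR (3.15), and without the filter 5 of 15 rose with a median of -0.46. The call of CSF3R (2.77) was lost without the virgin sample, gestation days 40 to 50, days 100 to 120 or lactation day 15, and that of CXCR2 (3.00) without any 1 of 7 samples, which were all but days 70 to 80 and 90 to 100. The neutrophil protein genes S100A8 (2.09, adjusted p = 0.177) and S100A9 (0.60, adjusted p = 0.779) did not pass. Of 6 fitted B and plasma cell genes 1 was called (4 of 17 without the filter, median 2.83), CD79A, a part of the B cell receptor, at 0.515 to 7.24 CPM in carriers against 0.0316 to 0.309 (log2 fold change 4.64, SE 0.49), and the immunoglobulin joining chain JCHAIN was not (0.95, adjusted p = 0.708). Both fitted mast cell genes, MS4A2 (0.38) and HDC (-2.10), missed the threshold.

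Partners of CD45 in signaling rose in part. Of 22 fitted genes of this list, which shares some genes with the others, 10 rose and none fell (median 2.08). Among them were the adaptors SKAP1 (5.87), LCP2 (4.60) and LAT (3.39), the kinases LCK, FYN (3.15), JAK3 (4.49), FGR and SYK (3.51), and PTPRCAP (3.70), which binds CD45. CSK (0.30), JAK1 (0.19) and LYN (0.00), which were at 4.06 CPM or more in the other cells of every stage, missed the threshold. Among adhesion and chemokine genes 5 of 11 rose, among them the integrin chains ITGA4 (6.23) and ITGB7 (3.41) and the receptor CXCR4 (3.59) beside CCL5. ICAM1 (0.09) and CXCL12 (-0.10) of the same list were not called, and VCAM1 was listed but not measured. CXCL12 had reads in 2069 cells, of which 223 were carriers, so it is not read here as an endothelial marker.

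Markers of the other non-parenchymal cells did not pass the edgeR test. None of 15 fitted endothelial genes was called (median 0.44). With every cell weighted equally in limma, however, PECAM1 (0.30, adjusted p = 0.00838) and OIT3 (0.44, adjusted p = 0.0159) were called higher. So was the platelet gene GP1BA (0.33, adjusted p = 0.00233), which DESeq2 also called (1.16, adjusted p = 0.0318). PECAM1, the endothelial adhesion protein, was at 0 to 6.44 CPM in carriers and 0.217 to 1.13 in the other cells (log2 fold change 1.00, SE 0.73, adjusted p = 0.631), and STAB2, the sinusoidal scavenger receptor, gave 0.38 (SE 0.32). Also without a call were 12 stellate and fibroblast genes (median -1.34), 6 cholangiocyte genes (-0.04), 4 red cell genes (-0.93) and 4 platelet genes (-0.27). Of the cholangiocyte genes, ANXA4 had reads in 3376 cells and CLDN4 in 2907, so their changes say little about cholangiocyte RNA. The hemoglobin chain HBB was at 0.0478 to 91.1 CPM in carriers and 0.116 to 288 in the rest, and 1 cell without PTPRC held 63.4% of its reads. Its log2 fold change of -3.32 (adjusted p = 0.304) became a call without gestation days 70 to 80, the stage with the highest carrier value (-4.49, adjusted p = 0.019). Genes of the interferon response (21 fitted, median 0.00), the acute phase (11, -0.11) and proliferation (17, 0.26) gave no call. Of 23 immediate early and dissociation genes FOS (1.73), EGR3 (4.95) and KLF2 (2.38) rose. The call of KLF2 was lost without the virgin sample, days 40 to 50, 70 to 80, 140 to 150 or either lactation sample.

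**Figure D2:**
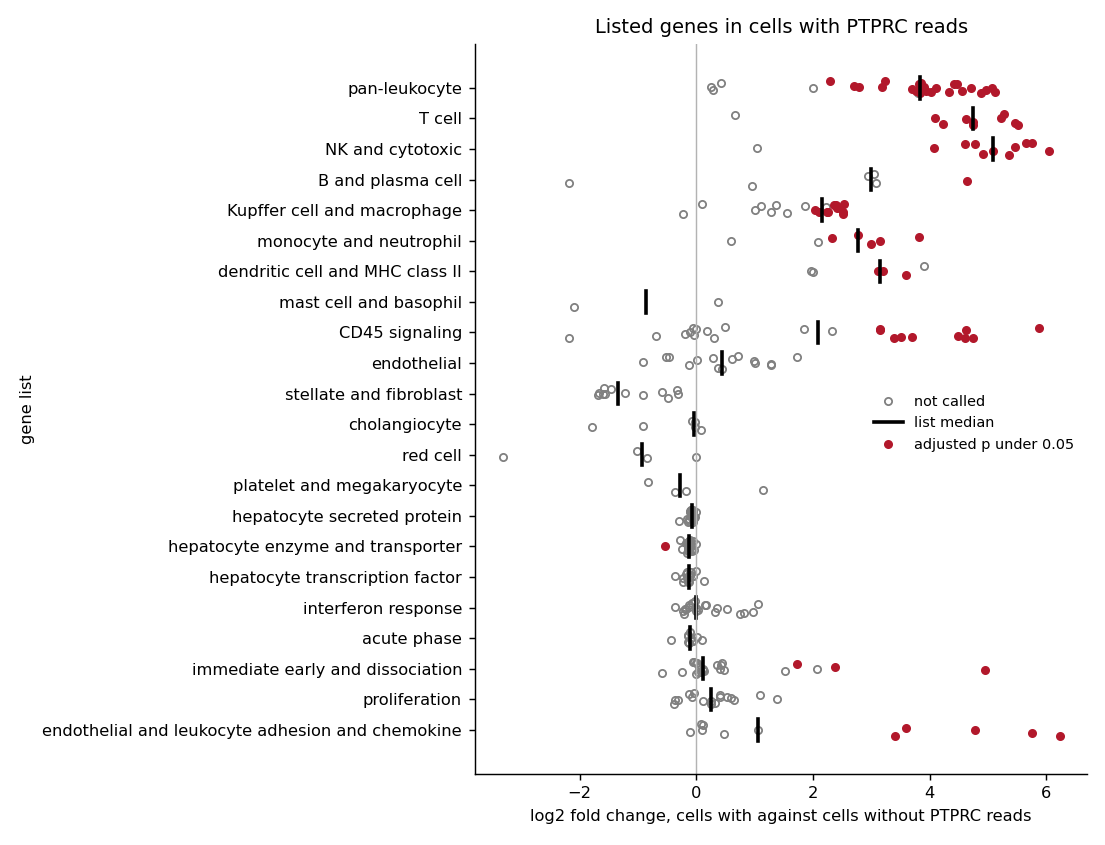
Each point is a gene of a fixed list, placed by its log2 fold change between cells with and cells without PTPRC reads (edgeR, 9 stages, stage as a block). Filled red points had an adjusted p under 0.05, and the black bar is the list median. The leukocyte lists lie to the right, with medians of 3.84 for pan-leukocyte and 5.09 for NK and cytotoxic genes, and the 3 hepatocyte lists lie at -0.08 to -0.13.

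How many leukocyte genes came along depended on how many PTPRC reads a cell had. After thinning, the median number of pan-leukocyte genes detected, of 28, was 2 in cells without PTPRC reads, 2 with 1 read, 3 with 2 to 9, 10 with 10 to 49 and 13 with 50 or more. CD3E was detected in 2.15% of cells without PTPRC (exact 95% interval 1.64 to 2.77), 4% with 1 read (0.488 to 13.7), 15.5% with 2 to 9 (10.4 to 21.8), 43% with 10 to 49 (32.4 to 54.2) and 88.9% with 50 or more (65.3 to 98.6). NKG7 went from 2.23% to 83.3% and SRGN, a granule proteoglycan of blood cells, from 10.2% to 88.9% between the first and the last class. C1QB was in 15.8% of cells without PTPRC, 24% with 1 read and between 30.2% and 44.4% in the 3 higher classes. Of the endothelial genes, STAB2 was in 16.7% to 21.4% of cells in all 5 classes, while PECAM1 was in 3.32% of cells without PTPRC (2.68 to 4.06), 8% with 1 read, 7.14% with 2 to 9, 12.8% with 10 to 49 (6.56 to 21.7) and 27.8% with 50 or more (9.69 to 53.5). Cells with 1 PTPRC read had intervals that overlapped those of cells with none for 18 of the 20 genes so compared, CD3E, NKG7 and C1QB among them. The 2 others were CD53, at 12% (4.53 to 24.3) against 3.14% (2.52 to 3.86), and CD74, at 52% (37.4 to 66.3) against 34.5% (32.7 to 36.3). These intervals pool cells of all stages and cover counting error only. With 50 cells in the class of 1 read they are wide, so an overlap does not show that the classes are alike. The classes also differ in stage, since 7 of the 18 cells with 50 or more reads came from lactation day 7. The median depth before thinning was 428669 reads in carriers and 415262 in the other cells, 530429 in cells with 1 PTPRC read and 349618 in those with 50 or more.

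**Figure D3:**
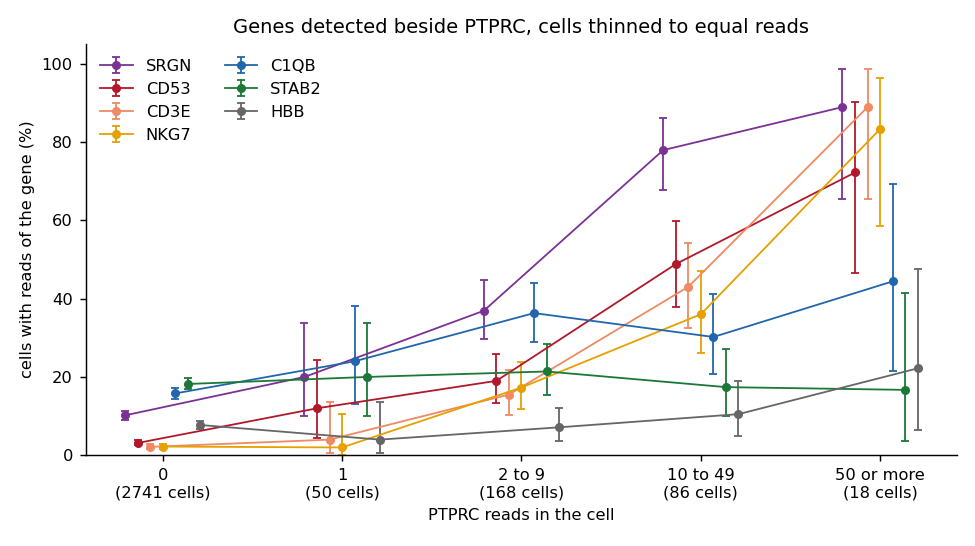
The share of cells (%) in which a gene was detected after thinning to equal reads, by the number of PTPRC reads in the cell before thinning, with exact 95% intervals. CD3E, NKG7, CD53 and SRGN climb to 72.2% or more in cells with 50 or more PTPRC reads, while STAB2 stays between 16.7% and 21.4%. PECAM1, which is not drawn, goes from 3.32% to 27.8%.

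Leaving out the 110 carriers with 10 or more PTPRC reads left 24 genes higher (0.163% of those tested), all of them among the 333, and 1 lower (0.0068%), HBB. Those still called included LAPTM5 (2.70), CD74 (1.83), GMFG (2.33), SRGN (2.46), CD53 (2.92), GNLY (4.04), CCL5 (3.92) and CD79A (3.63). CD3E (3.26, adjusted p = 0.0773), NKG7 (3.17, adjusted p = 0.056) and C1QB (1.80, adjusted p = 0.0685) kept their direction below the threshold. Of the 278 genes of the 333 that could be fitted, 277 kept their sign. With the comparison cells matched on reads 175 genes were higher, 163 of them among the 333, and 26 were lower, 8 of them among the 34.

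The leukocyte genes in carriers were of different kinds. A thinned cell was counted for a lineage when at least 2 genes of its list were detected, using only genes found in under 10% of cells without PTPRC reads. This rule was set after seeing values and is a description. Its genes were picked for being rare in cells without PTPRC reads, so low shares in those cells are partly set by the rule. It used 35 of 36 T and NK genes and 15 of 23 macrophage genes, without C1QA, C1QB and C1QC. For monocytes and neutrophils it used 13 of 15 genes, and for B and plasma cells 16 of 17. Of 322 carriers, 126 (39.1%) showed T and NK genes and 98 (30.4%) macrophage genes, 31 (9.63%) monocyte and neutrophil genes, and 19 (5.9%) B and plasma cell genes. With more genes that can meet the rule, the T and NK share is not on the same scale as the others. More than 1 lineage was shown by 54 carriers (16.8%) and none by 109 (33.9%). Among 2741 other cells 127 (4.63%) showed T and NK genes, 274 (10%) macrophage genes and 2347 (85.6%) none. T and NK genes were present in 17 of 18 cells with 50 or more PTPRC reads and in 7 of 50 with 1 read, and macrophage genes in 4 of 18 and 14 of 50.

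Stages differed in this makeup. T and NK genes were in 65% of carriers on lactation day 7, 56.4% at gestation days 100 to 120 and 51.9% at days 50 to 70, but in 14.9% of virgin carriers. Macrophage genes reached 52.6% of carriers at gestation days 90 to 100, the stage with the most carriers, and 9.09% on lactation day 15. Monocyte and neutrophil genes were in 21.3% of virgin carriers, above the T and NK (14.9%) and macrophage (17%) shares there. Among cells without PTPRC reads T and NK genes stayed between 1.9% and 6.64% in all 9 stages, where the choice of genes keeps such shares low. With 1 sample a stage these are values without a test of the difference between stages.

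**Figure D4:**
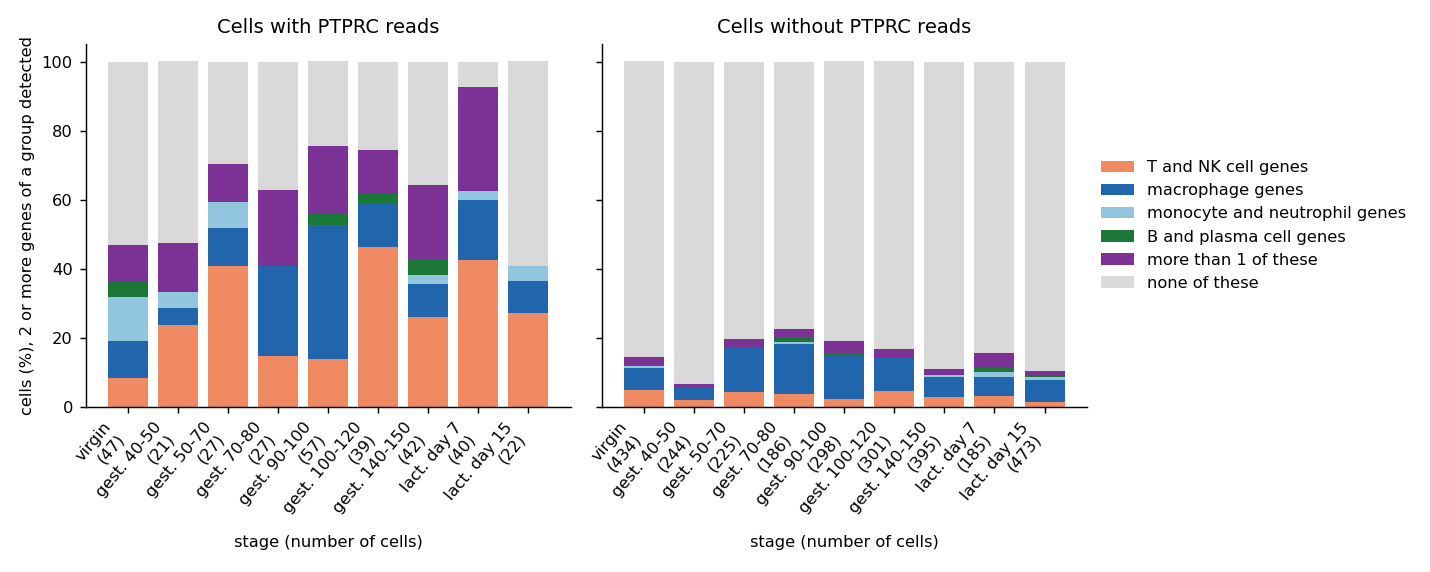
Cells (%) of each stage in which 2 or more genes of a lineage were detected after thinning, in cells with PTPRC reads (left) and without (right), with the number of cells in brackets. T and NK genes alone (orange) are in 42.5% of carriers on lactation day 7 and macrophage genes alone (blue) in 38.6% at gestation days 90 to 100, and grey (none) covers 77.4% or more of every bar on the right. The genes counted were picked for being rare in the cells on the right.

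Hepatocyte RNA was present in every carrier. ALB, the gene of the plasma protein albumin, was detected in all 351, and the lowest carrier had 1844 CPM of it. Summed over carriers ALB was at 79816 CPM in the virgin sample, 106452, 98437, 85440.5, 125742, 84995 and 84273 through gestation, and 41332 and 32833 on lactation days 7 and 15. The other cells of the same stages held 82208, then 102888, 93406, 95754, 113716, 100155 and 93276, then 52111 and 31695 CPM. Carriers were higher at 4 stages and lower at 5, and the log2 fold change was -0.07 (SE 0.05, adjusted p = 0.605). Of 28 fitted secreted protein genes of hepatocytes none was called (median -0.08), nor was any of 15 hepatocyte transcription factors (-0.13). Of 24 hepatocyte enzymes and transporters 1 fell, HAL, and the median was -0.13. Over all genes the median was -0.09.

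Cell by cell the picture was similar for most carriers. The 28 secreted protein genes took 22.1% of reads in carriers and 22.4% in the others (mean of 9 stage medians after thinning), a difference of -0.297 ± 1.28 percentage points (SD, n = 9, two-sided exact permutation test of sign flips over stages, adjusted p = 0.592). Hepatocyte enzymes and transporters took 2.57% and 2.62% (adjusted p = 0.21 by the same exact test). Reads per cell, without thinning, were 448815 and 414370.2 (exact test, adjusted p = 0.396). By contrast carriers showed 4.61 against 1.44 pan-leukocyte genes, higher at 9 of 9 stages, and 6002 against 5578 genes in all, higher at 8 of 9, both with an exact permutation adjusted p of 0.0273. These 7 tests, which included endothelial genes detected (0.778 against 0.556) and the red cell share of reads, were adjusted together, and 0.00391 is the smallest raw p that 9 stages allow. Choosing cells by reads of a low gene can itself favour cells in which more genes are detected. The excess in all genes cannot be told apart from that choice. Pooled over stages after thinning, the median was 5575 genes with 0 PTPRC reads and 5894 with 1 read. It was 5979.5 with 2 to 9, 5928 with 10 to 49 and 5443 with 50 or more.

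The share of hepatocyte reads was lower where PTPRC reads were many. Pooled over stages, the median of the secreted protein share was 22.9% in cells without PTPRC reads, 23.7% with 1 read, 23.2% with 2 to 9, 21.7% with 10 to 49 and 17.6% with 50 or more. Median ALB in the same order was 84648, 90936, 90185, 81055 and 65017 CPM. The stages differ in this share and in their carriers, and 8 of the 18 cells with 50 or more reads came from the lactation samples, where it was lowest. Measured from the median of the other cells of its own stage (added after seeing the data), the share differed by a median of 0.205 percentage points with 1 read, -0.107 with 2 to 9, -1.49 with 10 to 49 and -3.95 with 50 or more. A share under the 5th percentile of the stage's other cells was seen in 41 of 351 carriers (11.7%), and in 1.92%, 8.47%, 17.4% and 44.4% of the 4 classes of rising PTPRC reads. From the same stage medians, carriers with T and NK genes alone differed by a median of -1.48 points, those with macrophage genes alone by -1.08 and those with none of the lineages by 0.861.

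The extremes lay in a few cells, whose gene numbers are given here before thinning. On day 7 of lactation 1 carrier with 173 PTPRC reads had 24 pan-leukocyte genes, 11 T cell genes, 1844 CPM of ALB and a secreted protein share of 0.666%, where the other cells of that stage had medians of 52825 CPM and 18.8%. The carrier with the most PTPRC reads, 196, from the same stage, had 25 pan-leukocyte genes, 14 T cell genes and 13 macrophage genes beside 28595 CPM of ALB. At gestation days 100 to 120, in contrast, a carrier with 119 PTPRC reads had 14 pan-leukocyte genes and 74094 CPM of ALB. The lowest secreted protein share of any carrier, 0.643%, was in a cell with 10 to 49 PTPRC reads. Without the 41 carriers low in hepatocyte reads 251 genes were higher, 250 of them among the 333, with CD3E at 4.95, NKG7 at 4.56 and CD74 at 2.71. Whether a second cell, attached fragments or free RNA gave the leukocyte reads was not tested.

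**Figure D5:**
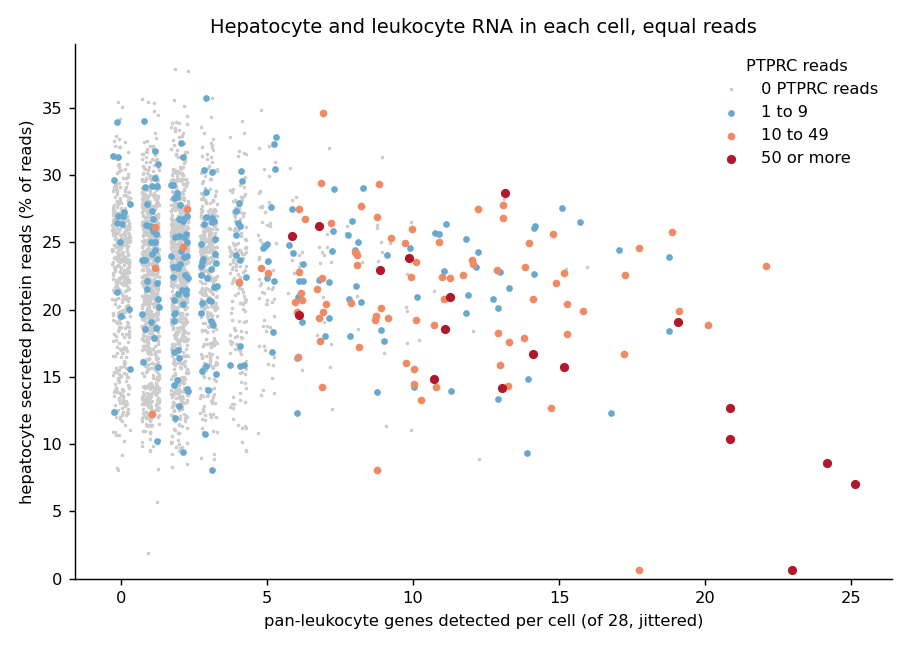
Each point is a cell after thinning to equal reads, by the number of pan-leukocyte genes detected (of 28, jittered) and the share of reads (%) in hepatocyte secreted protein genes, coloured by its PTPRC reads. Most carriers lie in the same range of hepatocyte share as the grey cells without PTPRC reads. Before thinning, carriers with 24 or 25 pan-leukocyte genes and 73 or more PTPRC reads were at 12.8%, 10.4%, 8.56%, 7.06% and 0.666%.

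Genes lower in carriers were few, and their median log2 fold change was -0.40. Of the 34, 5 had a log2 fold change below -1. Among genes named by rule, SC5 (-2.99, edgeR adjusted p = 0.0327) and TSSK3 (-1.09, edgeR adjusted p = 0.0187) fell most, each at 8 of 9 stages. SC5 lost its call with DESeq2, TSSK3 with comparison cells matched on reads, and both without at least 1 sample. DAAM1, a formin of the actin skeleton, was at 12.7 to 28.1 CPM in carriers (median 20.8) and 19.5 to 54 in the others (median 35). The ranges overlapped, and carriers were lower at 9 of 9 stages (log2 fold change -0.67, SE 0.11, adjusted p = 0.00126). HAL, which starts histidine breakdown in hepatocytes, was at 8.19 to 107 CPM against 22.3 to 96.8 (log2 fold change -0.54, SE 0.13, adjusted p = 0.0463). Its call was lost without gestation days 40 to 50, 50 to 70, 70 to 80 or 100 to 120 or either lactation sample. FABP1, the fatty acid carrier of liver cells, was at 4666 CPM ± 1648 (SD, n = 9) against 5446 ± 1802, lower at 9 of 9 stages (log2 fold change -0.23, SE 0.05, edgeR adjusted p = 0.0275). With comparison cells matched on reads DAAM1 (-0.59, adjusted p = 0.499) and HAL (-0.60, adjusted p = 0.0616) lost their calls and FABP1 kept it (-0.23, adjusted p = 0.041). FABP1 lost it without carriers of 10 or more PTPRC reads (-0.16, adjusted p = 0.475), without those low in hepatocyte reads (-0.18, adjusted p = 0.225), without the top pan-leukocyte carrier of each stage (-0.21, adjusted p = 0.0709), with library size only, with no stage block, and without the virgin sample, gestation days 40 to 50, 50 to 70 or 100 to 120 or lactation day 7. The growth factor receptor FGFR2 (-0.88), the nuclear pore protein NDC1 (-0.74) and COQ3 (-0.52), an enzyme of coenzyme Q synthesis, fell in the comparison of all samples but lost the call without at least 1 of them.

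The difference between carriers and other cells was tested for a change from gestation to lactation with the interaction term of the same edgeR fit. It called 0 of 15042 genes (0%), with 465 at an unadjusted p under 0.05. DESeq2 called 7 higher and 5 lower, the fit without a count filter 9 and 5, and leaving out gestation days 50 to 70 gave 1. The 2 lactation samples limit this test.

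Across all 3063 thinned cells the genes most like PTPRC in rank were LOC105613374 (Spearman rho 0.44), CD52 (0.43), CD3E (0.43), the adaptor FYB1 (0.42), LOC101110848 (0.42) and LAPTM5 (0.41). These values describe cells that share stage and library method. CD52 was detected in 228 of the thinned cells, CD3E in 140 and LAPTM5 in 352, so most cells were at 0 for each.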

How the data were processed

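The authors deposited whole-number read counts per gene and cell for 9 samples. Their tools, credited to the submitters' processing notes, were featureCounts 2.0.1, HISAT2 2.1.0 and Trimmomatic 0.39. The genome build, the use of strand and the treatment of molecular identifiers are not given in the sources used here. Of 28861 rows, 24 named no gene (0.474% of reads) and were left out. A second table of normalized values held only NA and was not used. Symbols were matched to RefSeq names of ARS-UI_Ramb_v3.0 for 28837 of 28837 genes, and no sequence or coordinate is given. Doublets were not called, since cells were picked by hand, and 0 cell names were shared between samples.

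Counts were summed per stage over cells with and without PTPRC reads and fitted with edgeR 4.0.16 in R 4.3.3 (filterByExpr, TMM, glmQLFit, glmQLFTest, Benjamini-Hochberg, threshold 0.05), stage as a block, since both sums of a stage come from 1 sample. The SE of a log2 fold change is its size over the root of F. CPM use TMM-scaled library sizes or, for single cells, all reads of the cell, and are not corrected for length. Per-cell measures used random subsets of 155164 reads a cell, the 10th percentile of depth. Exact permutation tests counted every arrangement directly, and the sign-flip test was checked against SciPy 1.17.1. On simulated data of 14488 genes the fit recovered 71.6% of genes changed by a log2 fold of 1 and 100% of those changed by 2 or 3, with 9 false calls.

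The cells and the 22 gene lists were chosen with earlier results of these data known. Genes were named by rule: up to 15 higher and 12 lower by fold among called genes with a symbol not starting with LOC, 5 CPM or more in the higher group and 1 direction in all stages but at most 1; up to 5 called members per list by p, or the 2 highest in expression; 9 listed genes; and the 6 most like PTPRC. Not every gene so named is printed. Uncalled list members, further called members of the CD45 signaling list, SRGN in the classes of PTPRC reads, OVAR-DRB1 and FABP1 were named after their values were seen. Alternatives were DESeq2 1.42.0, limma 3.58.1 on per-cell means, other filters, scalings and PTPRC thresholds, and leaving out each sample.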

Additional observations from a re-analysis of the deposited data

Results flagged for a closer look

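Within the 6 gestation samples 16 series of values were checked. In these, 4 values had a gap to their nearest neighbour that was large for the group's range (Dixon's criterion). Chance meets it in about 1 of 20 groups where values are not tied. At days 100 to 120 carriers had 39.4 CPM of CD3E, above the 6.86 to 17.1 CPM of the other 5. At the same stage the median number of endothelial genes detected was higher by 1 in carriers than in other cells, and by 0 at the other 5. In the virgin sample, outside this check, it was also higher by 1. At days 70 to 80 carriers had 91.1 CPM of HBB, and the red cell share of reads differed by 0.000644 percentage points where the other 5 stages gave 0. For endothelial genes and the red cell share, with 5 values tied at 0, any other value meets the criterion. Those flags therefore have no such chance rate.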

How the results depend on the processing

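No named gene or summary value reversed a call. The 333 higher genes became 523 with DESeq2, 1027 with equal weight per cell in limma, 24 without carriers of 10 or more PTPRC reads and 175 with cells matched on reads, and 275 to 336 without 1 sample. The 34 lower genes became 129 with DESeq2, 12 with library size only, 104 without a count filter, 3 with no stage block, 54 with PTPRC status after thinning, 1 without carriers of 10 or more reads, 18 without carriers low in hepatocyte reads and 22 without the top pan-leukocyte carrier of each stage (both added after seeing the data), and 12 to 93 without 1 sample. The pairing of a stage's sums comes from their shared sample. The phase interaction gave 7 higher and 5 lower genes with DESeq2, 9 and 5 without a filter, and 0 to 1 higher without 1 sample. The median of all genes moved from -0.09 to -0.21 without the filter and 0.07 in limma.

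Giving each cell equal weight in limma on log2(CPM + 1) gave list medians, on a scale that understates low genes, of 0.77 for pan-leukocyte, 0.67 T cell, 0.73 NK and cytotoxic, 0.17 B cell, 0.34 macrophage, 0.34 monocyte, 0.29 dendritic cell, 0.03 mast cell, 0.44 CD45 signaling, 0.02 stellate, 0.03 red cell, 0.13 platelet and 0.32 adhesion genes. Without carriers of 10 or more PTPRC reads they were 2.39 for pan-leukocyte, 2.77 T cell, 3.33 NK, -0.36 B cell, 1.54 monocyte, 1.50 dendritic cell, 0.18 CD45 signaling and 0.35 adhesion genes. Without a filter they were -0.46 for monocyte, 2.26 dendritic cell, -0.33 cholangiocyte and -1.39 platelet genes. With cells matched on reads they were 0.78 for mast cell, 0.28 CD45 signaling, -0.38 stellate and 0.44 platelet genes. With no stage block they were -0.18 for mast cell, -0.58 stellate and -0.02 red cell genes. The B cell median was 0.78 without carriers low in hepatocyte reads, and the mast cell median -1.76 with status after thinning.

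The share difference of -0.755 points was 0.604 without thinning, 0.087 for 2 or more reads, and -7 to 5.49 without 1 sample. The difference in reads per cell of 34444 was -40963 with status after thinning and 73784 without carriers low in hepatocyte reads, where it passed. Genes detected (424) gave 447 with status after thinning and 383 without carriers of 10 or more reads, both past no threshold, and 339 to 478 without 1 sample. Pan-leukocyte genes detected (3.17) gave 1.5 without carriers of 10 or more reads (adjusted p = 0.0547 by the exact permutation test, so its call was lost too) and 2.62 to 3.44 without 1 sample. Both calls held without the virgin sample (0.0273, the only stage with fewer genes in carriers). They missed the threshold without any 1 of the other 8 (0.0547). With 8 stages the smallest p that the test allows is larger than with 9. Pan-leukocyte genes were higher at 9 of 9 stages, so this loss does not show dependence on any 1 sample. The secreted protein share (-0.297) gave 0.0167 at the deeper thinning, 0.182 without carriers of 10 or more reads and 0.0837 without those low in hepatocyte reads. The enzyme share (-0.0519) gave -0.0914 with means, which passed, and 0.0165 without carriers of 10 or more reads. Endothelial genes detected (0.222) gave 0.607 with means, which passed. The red cell share (7.16e-05) gave -0.00616 with means, 0 for 2 or more reads, status after thinning or without carriers of 10 or more reads, and 0 to 8.06e-05 without 1 sample. Where no cause is stated, the cause was not tested.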
